A study of Mus musculus with 6 samples.

Results

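Long noncoding RNAs with established gene names were followed in dorsal root ganglia (DRG) of the L4/5 level, which hold the cell bodies of sensory neurons. The list holds 35 names, and a transcript was included when a row of the deposited tables carried its symbol. That gave 32 of the 48401 rows, and 27 of these passed a minimum mean level of 1 TPM (abundance scaled to transcript length and depth) over the 6 libraries. Snhg15, Zfas1 and Oip5os1 had no row of their own and are described under the older symbols that RefSeq lists for them. The samples were siCLAP-1, siCLAP-2 and siCLAP-3, from mice given siCLAP, and siNC-1, siNC-2 and siNC-3, from mice given siNC, which is taken here as the control small interfering RNA. All mice were male C57BL/6J animals aged 8 weeks, and in all of them the small interfering RNA was injected intrathecally, into the fluid around the spinal cord. CLAP is the long intergenic noncoding RNA (lincRNA) that the series title links to itch. Its own level was not analysed here, so the knockdown was not checked. Whether each library stands for its own mouse is not in the labels, and p-values therefore cover only the spread among the libraries.

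Long noncoding RNAs are transcripts that carry no long open reading frame, and they act or are processed in several ways. Malat1 and Neat1 stay in the nucleus, where Malat1 associates with nuclear speckles and Neat1 builds paraspeckles, bodies that hold RNA-binding proteins such as Nono and Sfpq. Meg3, Rian and Mirg are transcribed from the maternal chromosome of the Dlk1-Dio3 domain, while Kcnq1ot1, Peg13 and Snhg14 are transcribed from the paternal one and H19 from the maternal one of other imprinted domains. Most transcripts named Snhg, together with Gas5 and Zfas1, are hosts whose introns release small nucleolar RNAs (snoRNAs), the guides for chemical modification of ribosomal RNA. Ftx and Jpx lie in the X inactivation centre. In sensory and other neurons Meg3, Miat and Snhg11 are known as abundant transcripts.

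Several of these RNAs have microRNA genes inside their span, on either strand. RefSeq (GRCm38.p6, which has the coordinates of mm10) places 25 microRNA genes in the spans of 10 of the 35. Among these, Mir6363 in Dubr and Mir374c in Ftx lie on the strand opposite to the member. The mature sequences below are those tied to a value given later. Bases 2 to 8, the seed that pairs with targets, are in capitals. The first 3 belong to Meg3, Rian and H19, the next pair share the seed of Dleu2's microRNAs, and the last pair share a seed within Mirg.
mmu-miR-770-5p: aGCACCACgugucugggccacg
mmu-miR-370-3p: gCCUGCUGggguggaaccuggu
mmu-miR-675-5p: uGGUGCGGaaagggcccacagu
mmu-miR-15a-5p: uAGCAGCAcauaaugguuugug
mmu-miR-16-5p: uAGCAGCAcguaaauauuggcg
mmu-miR-453: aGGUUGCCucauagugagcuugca
mmu-miR-496a-5p: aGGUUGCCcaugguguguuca

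Transcription of snoRNA hosts and of ribosomal protein genes often starts at a C followed by a run of pyrimidines, the 5' terminal oligopyrimidine start. RefSeq start windows were at hand for 26 members and were searched on the transcribed strand for a C followed by 4 bases that are each C or T, exactly at an annotated start. This start was found in 3 of 13 snoRNA hosts (23.1%) and in 3 of 13 other members (23.1%). Snhg14 and Rian, which also hold snoRNA genes, were counted among the other members. Snhg20, whose RefSeq span holds none, was counted among the hosts. The same start stood in 13 of 60 ribosomal protein genes (21.7%) and in 813 of all 27025 genes with a window (3.01%). A run that begins some bases away from the annotated start was not counted. These shares hold for annotated starts only and may miss genes whose transcription starts at such a run. The 3 hosts with this start were Gas5, Snhg7 and Snhg8. Each line below gives 20 bases before the start and 20 from the start on, in transcript direction, with the first 5 transcribed bases in capitals. They lie at chr1:161035146-161035185 on the plus strand, and at chr2:26640225-26640264 and chr3:123508317-123508356 on the minus strand of GRCm38.p6. The Gas5 start shown is the second of its annotated starts, and the other one has no such run.
Gas5: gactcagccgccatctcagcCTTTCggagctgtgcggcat
Snhg7: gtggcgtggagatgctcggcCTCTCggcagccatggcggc
Snhg8: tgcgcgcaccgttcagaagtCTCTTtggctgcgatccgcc

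The 32 rows spanned a wide range of levels, and a few of them made up most of the total. Summed over the members, the level was 2043, 2049 and 2101 TPM in the siCLAP libraries, against 1990, 2174 and 2106 TPM in the siNC libraries. Here and below, values within a group are in the order of the replicate numbers. The members took 0.572%, 0.582% and 0.599% of all counts in the siCLAP libraries and 0.542%, 0.611% and 0.580% in the siNC libraries. The groups overlapped in both measures. By mean level over the 6 libraries, 8 members were at 20 TPM or more, 19 between 1 and 20 TPM and 5 below 1 TPM.

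Snhg11, a snoRNA host that is strongly expressed in neurons, was the most abundant member. It stood at 733, 747 and 732 TPM in the siCLAP libraries and at 682, 799 and 740.1 TPM in the siNC libraries. Meg3, the maternally expressed RNA of the Dlk1-Dio3 domain, followed at 470.3, 470.7 and 525 TPM in siCLAP and 464, 511 and 494 TPM in siNC. These 2 transcripts did not overlap each other in any library, and within each of them the groups overlapped.

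Miat, a nuclear RNA of neurons also called Gomafu, and Peg13, an imprinted RNA from an intron of Trappc9, came next in the order and their levels overlapped. Miat was at 201, 184 and 227 TPM in siCLAP and at 234, 229 and 243 TPM in siNC. Peg13 was at 197.1, 197.2 and 195.3 TPM in siCLAP and at 190.8, 194.5 and 186.9 TPM in siNC. Each of the 2 separated the groups, with Miat lower and Peg13 higher in every siCLAP library, Peg13 by a margin of less than 1 TPM.

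Malat1 and Rian also shared a range. Malat1 had 122.9, 122.8 and 92.4 TPM in siCLAP, against 100.7, 110.6 and 104.5 TPM in siNC. Rian, the snoRNA-rich RNA downstream of Meg3, had 97.7, 100.9 and 107.2 TPM in siCLAP, against 99.2, 102.6 and 100.9 TPM in siNC. In siCLAP-3 Rian exceeded Malat1, and in the other 5 libraries Malat1 exceeded Rian. The last of the 8 were Gas5, a snoRNA host that is degraded during translation, and Tug1, a widely expressed RNA whose gene starts beside Morc2a. Gas5 was at 43.5, 45.4 and 41.9 TPM in siCLAP and 45.5, 50.6 and 50.5 TPM in siNC. Tug1 was at 29.0, 29.9 and 27.7 TPM in siCLAP and 28.0, 28.4 and 26.2 TPM in siNC, below Gas5 in every library.

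**Figure D1:**
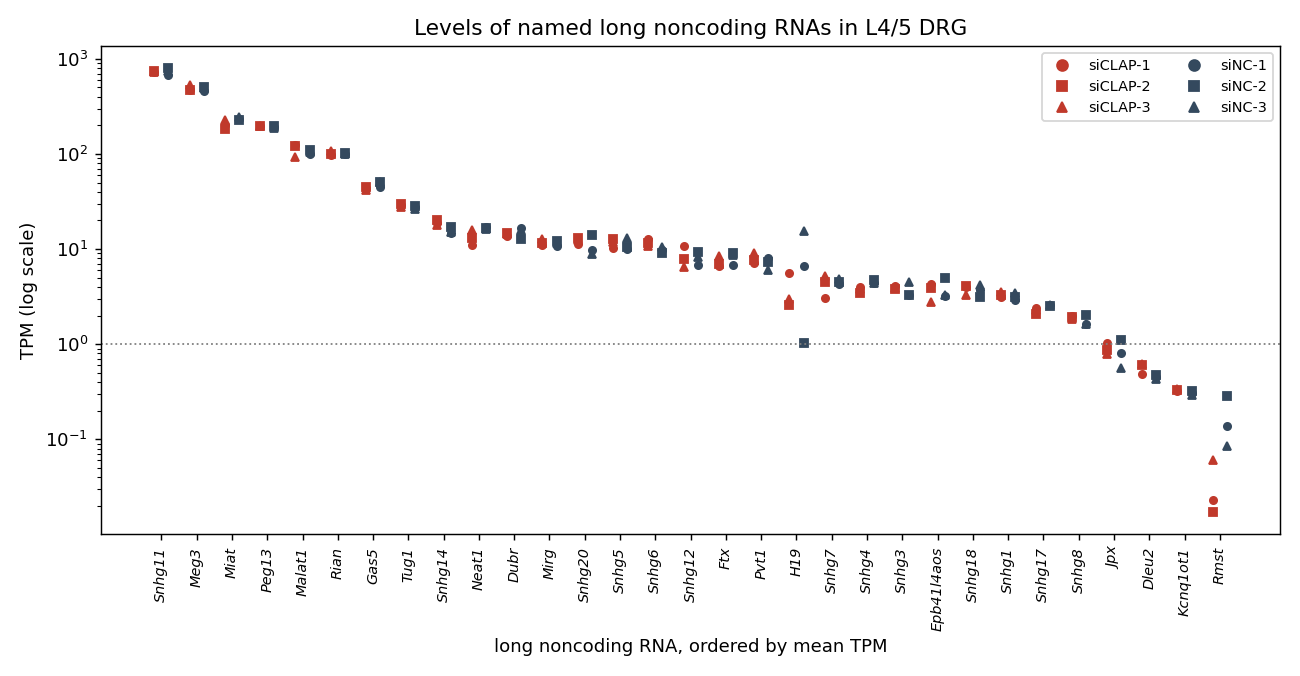
TPM (log scale) of the 31 members with a count in some library, ordered by mean level, with siCLAP libraries in red and siNC libraries in dark blue and a marker shape for each replicate number. The dotted line marks 1 TPM, the minimum for testing, and the wide vertical spreads are those of H19 and Rmst.

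A level per length depends on the length used, and the lengths implied by the deposited TPM and counts differ from those of current gene models for some members. The lengths were scaled on Malat1, at its GENCODE M21 exon length of 6983 bases, and on that scale the implied length of Neat1, 20771 bases, equals its own exon length there. Miat was counted over 1619 bases, where its GENCODE exons cover 9293 bases. For Gas5 the lengths are 636 and 3760 bases, and for Snhg14 they are 6765 and 26093 bases. Places in the order of levels therefore hold for the counted transcript models. Of 30 members with a row and a GENCODE entry, 26 share exon bases with another gene on either strand. For some of them, such as Neat1, Gas5 and Rian, these genes all lie on the same strand. The library kit does not mark strand, so reads from overlapping antisense transcripts cannot be told apart. Opposite-strand overlaps include 24.3% of Miat's GENCODE exon bases (Gm26953), 71.5% of Snhg3's (Gm17300), 11.1% of Snhg6's (Mcmdc2) and 6.91% of Snhg14's (Ube3a). How much of these shared bases lies in the counted models is not known. Epb41l4aos and Snhg18 had the same counts in all libraries as 2410004N09Rik and 0610007N19Rik, which RefSeq lists as their own older symbols, so each of these 2 loci has 2 rows in the tables and its level may be split between them. GENCODE M21 types Snhg11 as protein coding, whereas RefSeq types it as a long noncoding RNA.

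Between siCLAP and siNC the question was which of these RNAs differ after siRNA against CLAP. None of the 27 tested members passed edgeR's quasi-likelihood test at an adjusted p under 0.05, where 56 of all 19141 tested genes did (0.293%, with 0.0731% higher and 0.219% lower in siCLAP). Limma called 0 members and 0 of all tested genes (0.00%) at either pseudocount, where 3028 and 3017 genes had an unadjusted p under 0.05. DESeq2 called 1, Snhg14, beside 2.71% of tested genes, and edgeR without a filter on low values called 2, Neat1 and Snhg14, beside 2.75%. Leaving out siCLAP-3 gave 2 calls, Neat1 and Miat (background 1.78%), and leaving out siNC-2 gave 1, Snhg14 (background 0.820%). In the same edgeR test 4 members (14.8%) had an unadjusted p under 0.05, Snhg14, Neat1, Miat and Snhg6, beside 17.0% of all tested genes. This 17.0% is also the background for the counts of unadjusted p under 0.05 in the classes and gene lists below. The groups did not overlap in 8 of 27 members (29.6%), beside 21.6% of all tested genes. Of these, Peg13, Snhg14 and Snhg6 were higher in siCLAP (background 9.39%) and Miat, Gas5, Neat1, Snhg4 and Snhg17 were lower (background 12.2%). The estimates of 17 members were positive and those of 10 negative, with a median log2 fold change of 0.04, beside -0.002 over all tested genes. Among these 27 tested members, H19 was the only one with an estimated fold above 1.25 in either direction. The median standard error (SE) was 0.128 for the members and 0.093 for all tested genes. On simulated counts for this comparison, changes of 1.25-fold, 1.5-fold and 2-fold were recovered in 40%, 82% and 94% of 50 changed genes each. A change of about 1.25-fold in a member was therefore often not detectable. These rates were not obtained for the members themselves, whose median SE was larger than that of all tested genes. Members below 2 CPM were not covered by the simulation, and for them the rates may overstate what could be detected. An example is Snhg8, with 10.42 to 28.25 counts a library and a mean of 0.576 CPM in siCLAP and 0.517 CPM in siNC.

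**Figure D2:**
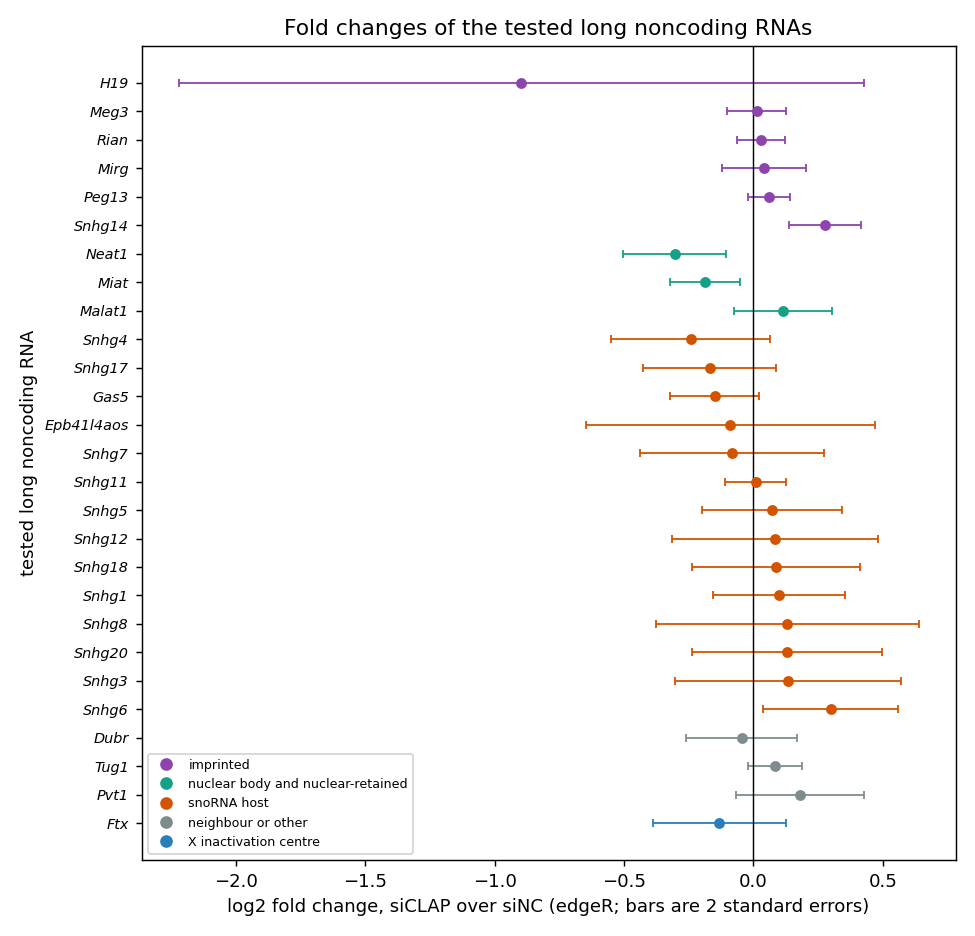
Log2 fold change of siCLAP over siNC for each of the 27 tested members, coloured by class, with bars of 2 SE on each side from edgeR's quasi-likelihood fit. The bars of Snhg14, Snhg6, Neat1 and Miat do not cross 0, and the bar of H19 is the widest.

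Facts that bear on all members are few. Library totals ran from 25982046 to 39239131 expected counts in siCLAP and from 21386768 to 46317735 in siNC. Neuronal and satellite glia markers were abundant. Summed over 5 genes each they ranged from 10070 to 10460 TPM in siCLAP and 9505 to 9750 TPM in siNC for neurons, and from 4104 to 4545 TPM and 3842 to 4175 TPM for satellite glia. The neuronal sums did not overlap. Of their 5 genes, Uchl1 and Elavl4 were higher in every siCLAP library, Tubb3, Snap25 and Rbfox3 overlapped between the groups, and Rbfox3 had a negative estimate of -0.04 ± 0.04 (SE). The satellite glia sum was mostly Apoe. Of its genes, Fabp7 was higher (0.38 ± 0.07) and Cdh19 lower (-0.18 ± 0.06) in every siCLAP library, and neither passed. Kcnj10, Glul and Apoe overlapped between the groups. Myelinating Schwann markers summed to 3216 to 3521 TPM in siCLAP and 3222 to 4286 TPM in siNC. Markers of endothelium, macrophages, skeletal muscle and central glia summed to at most 65.3, 20.2, 3.76 and 9.69 TPM, and no marker gene was at 0 in every library. Interferon-induced genes (Ifit1, Ifit3, Isg15, Irf7 and Usp18) summed to 454 TPM in siCLAP-2 and 449.9 TPM in siNC-3, against 230.2 to 268 TPM in the other libraries, and results below are given without those 2 libraries where that matters. Hoxd10, a marker of caudal spinal level, was at 1.78, 7.94 and 0.750 TPM in siCLAP and 8.62, 15.6 and 14.8 TPM in siNC. In these bulk libraries fewer cells of a type and less RNA per cell cannot be told apart.

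Snhg14 gave the smallest p among the members. It is the long paternal transcript of the Prader-Willi and Angelman region, running on chromosome 7 from 59272737 to 60450177 on the minus strand, and it hosts snoRNA clusters and extends antisense across Ube3a. Its level was 18.6, 20.1 and 18.01 TPM in siCLAP, against 14.9, 17.1 and 15.1 TPM in siNC. Every siCLAP library lay above every siNC library, although siCLAP-3 exceeded siNC-2 by less than 1 TPM. The log2 fold change was 0.28 ± 0.07 (SE), with an unadjusted p of 0.0023 and an edgeR adjusted p of 0.0966. It passed with DESeq2 (adjusted p = 0.0249), without the filter on low values (0.0120) and without siNC-2 (0.36, adjusted p = 0.0385), and the adjusted p reached 0.554 without siNC-3 and siCLAP-2.

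Of the 7 protein-coding genes listed for the Snhg14 domain, 6 were tested, 0 passed and 0 had an unadjusted p under 0.05. Their estimates were positive for 4 and negative for 2, with a median of 0.07. Snurf and Snrpn, which are made as one paternal transcript with Snhg14 downstream, and Ndn, another paternal gene, had the highest levels. Snrpn was at 514, 547 and 494 TPM in siCLAP and 486, 505 and 481 TPM in siNC, with a log2 fold change of 0.10 ± 0.05 (SE). Snurf, whose reading frame shares that transcript, had nearly the same counts as Snrpn in every library, such as 16079 beside 16117 in siCLAP-1. Its estimate was the same to 2 decimals, 0.10 ± 0.05. These 2 rows are therefore not separate observations, although both are among the 6 tested. Ndn stood at 0.05 ± 0.05. Ube3a, the maternally expressed ubiquitin ligase of neurons that Snhg14 overlaps, was at 25.8, 22.7 and 23.7 TPM in siCLAP and 26.4, 22.8 and 25.6 TPM in siNC. Its log2 fold change was -0.03 ± 0.07. The ratio of Snhg14 to Snrpn was 0.0364 ± 0.00024 in siCLAP and 0.0320 ± 0.0016 in siNC (SD, n = 3 each). An exact 2-sided permutation test gave p = 0.1, the smallest p that 3 against 3 allows, and 0.25 after Benjamini-Hochberg adjustment over 5 ratios.

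Peg13 varied least of all tested members, by 1.05-fold between its highest and lowest library. Its gene lies within Trappc9 on chromosome 15, from 72805602 to 72810324 on the minus strand. The log2 fold change was 0.06 ± 0.04 (SE) and the edgeR adjusted p was 0.487. Among its 4 listed neighbours 0 passed and 2 had an unadjusted p under 0.05, Trappc9 and Ago2. Trappc9, which encodes a subunit of a vesicle-tethering complex, was at 45.5, 44.6 and 46.7 TPM in siCLAP, against 53.6, 49.6 and 52.5 TPM in siNC, a log2 fold change of -0.17 ± 0.05 (edgeR adjusted p = 0.102). Ago2, the slicer protein of RNA interference, was at 26.0, 26.9 and 28.0 TPM in siCLAP and 32.0, 29.5 and 30.9 TPM in siNC, also at -0.17 ± 0.05 (edgeR adjusted p = 0.101). Both were lower in every siCLAP library, while Peg13 was not. Chrac1, a chromatin accessibility subunit, stood at 0.17 ± 0.09. The ratio of Peg13 to Trappc9 was 4.31 ± 0.121 in siCLAP and 3.68 ± 0.209 in siNC (SD, n = 3 each). By the exact 2-sided permutation test this gave p = 0.1, again the smallest possible, and 0.25 after adjustment over the 5 ratios.

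**Figure D3:**
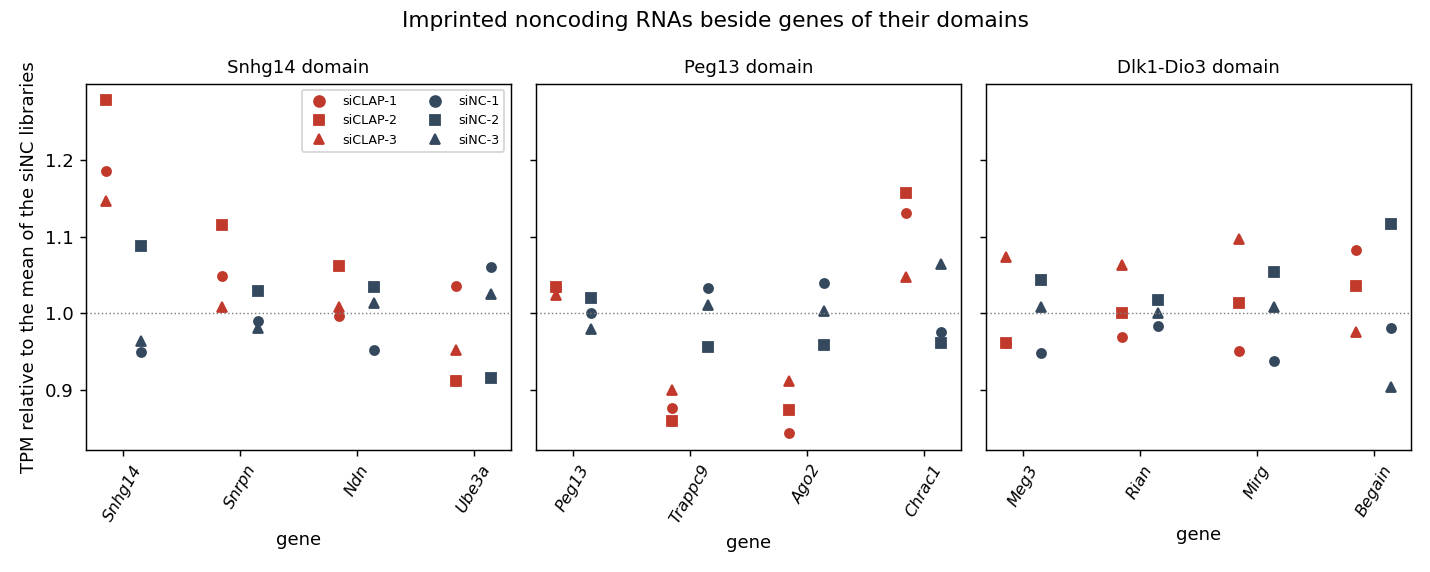
TPM of each gene divided by its mean over the siNC libraries, for Snhg14, Peg13 and the Dlk1-Dio3 RNAs beside genes of their domains, with siCLAP libraries in red left of siNC libraries in dark blue. The groups separate for Snhg14, Peg13, Trappc9 and Ago2, and they overlap for Meg3, Rian, Mirg and Begain.

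The maternal RNAs of the Dlk1-Dio3 domain on chromosome 12 overlapped between the groups. Log2 fold changes were 0.01 ± 0.06 (SE) for Meg3, 0.03 ± 0.05 for Rian and 0.04 ± 0.08 for Mirg, the microRNA host at the far end of the domain. Intervals of 2 SE ran from -0.10 to 0.13 for Meg3, from -0.06 to 0.12 for Rian and from -0.12 to 0.20 for Mirg. Mirg ranged from 10.96 to 12.7 TPM in siCLAP and from 10.8 to 12.2 TPM in siNC. In siCLAP-3 all of these RNAs were above their levels in siCLAP-1 and siCLAP-2, and without that library each of the estimates was negative. Rian stood at 0.209 ± 0.0052 of the Meg3 level in siCLAP and 0.206 ± 0.0066 in siNC (SD, n = 3 each; exact 2-sided permutation p = 0.6, 0.6 adjusted over 5 ratios). For Mirg the fraction was 0.0241 ± 0.00077 in siCLAP and 0.0236 ± 0.00025 in siNC (exact 2-sided permutation p = 0.3, 0.5 adjusted).

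The protein-coding genes of the same domain were lower than Meg3 and Rian, while Begain was slightly above Mirg in every library. Dlk1, a paternally expressed membrane protein of growing tissue, was at 0.09, 0.11 and 0.09 TPM in siCLAP and 0.15, 0.84 and 0.47 TPM in siNC, below the level for testing. Rtl1, a retrotransposon-derived gene, stood at 0.21 ± 0.13 and Begain, which encodes a postsynaptic protein and is the most abundant of the 4 listed genes, at 0.05 ± 0.10. Of the 2 tested genes 0 passed.

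H19, the maternally expressed RNA beside Igf2 on chromosome 7, was the tested member that differed most between libraries, by 15.3-fold between highest and lowest. It falls outside the rule for genes given with values in each library and was added after its values were seen. Its level was 5.67, 2.60 and 2.97 TPM in siCLAP, against 6.61, 1.02 and 15.7 TPM in siNC. Both the highest and the lowest library belonged to siNC, and the siCLAP libraries lay between them. The log2 fold change was -0.90 ± 0.66 (SE) with an edgeR adjusted p of 0.518, and it was 0.07 without siNC-3.

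Igf2, the paternally expressed growth factor of the H19 domain, was at 3.87, 1.87 and 1.29 TPM in siCLAP and 8.36, 2.18 and 19.97 TPM in siNC. Like H19 it was highest in siNC-3. Its log2 fold change was -1.98 ± 0.63 (edgeR adjusted p = 0.159). Igf2 is also a marker of leptomeningeal and root sheath cells, the membranes around roots and cord. The other markers of that list did not all go the same way. Ptgds was at 13.5, 6.67 and 3.63 TPM in siCLAP and 90.3, 19.3 and 91.7 TPM in siNC. Slc47a1 was at 0.82, 0.53 and 0.27 TPM in siCLAP and 1.59, 1.40 and 3.12 TPM in siNC. Of the 6 listed markers 5 had an unadjusted p under 0.05 and 0 passed, with Lum higher in siCLAP (0.67 ± 0.15) and Ptgds, Slc47a1, Slc6a13 and Igf2 lower. Dcn overlapped between the groups, at 0.09 ± 0.16. The sum of the list, which is mostly Dcn, was 281 to 466 TPM in siCLAP and 293 to 478 TPM in siNC. Erythroid genes, which mark blood, summed to 8.56 to 24.0 TPM in siCLAP and 9.07 to 48.4 TPM in siNC. Hbb-bs was highest in siNC-1. The part of either cell source in the values of H19 was not tested.

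**Figure D4:**
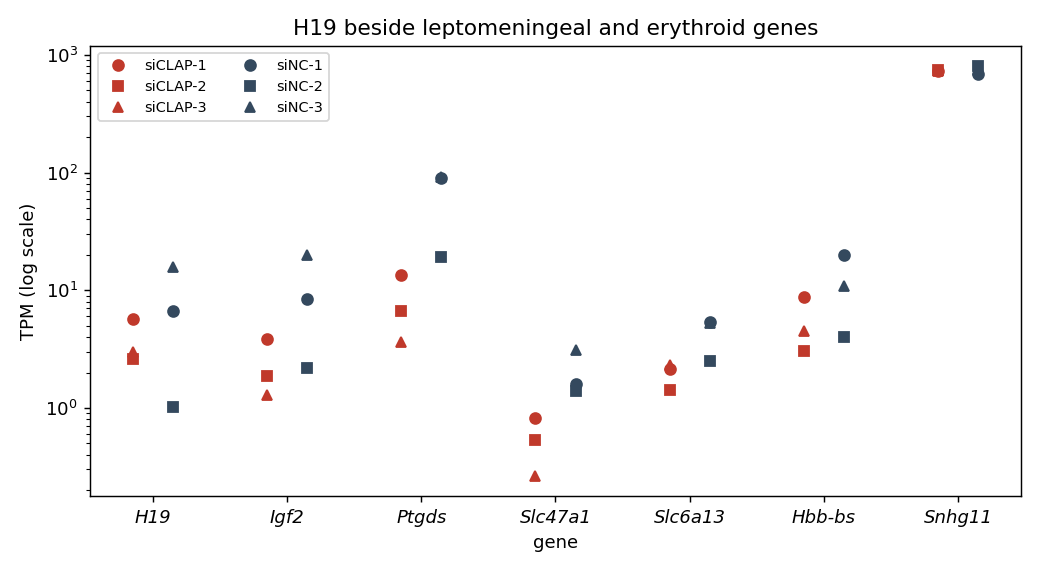
TPM (log scale) of H19 and Igf2 beside the leptomeningeal genes Ptgds, Slc47a1 and Slc6a13, the globin gene Hbb-bs and Snhg11, with siCLAP libraries in red left of siNC libraries in dark blue. H19, Igf2, Ptgds and Slc47a1 are highest in siNC-3, Hbb-bs is highest in siNC-1, and Snhg11 varies little. Lum and Dcn, from the same list as the leptomeningeal genes, had positive estimates and are not shown.

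Kcnq1ot1, the paternal antisense RNA that silences part of the Kcnq1 domain, was below the level for testing. Its level was 0.325, 0.332 and 0.337 TPM in siCLAP and 0.3100, 0.321 and 0.295 TPM in siNC, and the groups were less than 0.01 TPM apart. Because the counted transcript is 83437 bases long, this low level per length still rested on 200.3 to 477 counts per library. With edgeR's filterByExpr in place of the TPM minimum, its log2 fold change was 0.11 ± 0.08 (adjusted p = 0.539). Among 6 listed genes of the Kcnq1 and Igf2 domains 5 were tested, 0 passed and 2 had an unadjusted p under 0.05, Igf2 and Cdkn1c. Cdkn1c, a maternally expressed inhibitor of cell division that Kcnq1ot1 represses in cis, was at 3.16, 2.71 and 3.30 TPM in siCLAP and 3.84, 4.12 and 5.04 TPM in siNC, a log2 fold change of -0.47 ± 0.15 (edgeR adjusted p = 0.162). Slc22a18, an organic cation transporter gene of the domain, stood at 0.10 ± 0.09.

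Of the 3 nuclear RNAs, Neat1 and Miat had negative estimates and Malat1 a positive one. Neat1, transcribed on chromosome 19 from 5824708 to 5845480 on the minus strand, was at 11.1, 13.2 and 15.9 TPM in siCLAP, against 16.9, 16.8 and 16.3 TPM in siNC. All 3 siCLAP libraries lay below the siNC range, siCLAP-1 the furthest and siCLAP-3 by less than 1 TPM. The log2 fold change was -0.30 ± 0.10 (SE), with an unadjusted p of 0.0107 and an edgeR adjusted p of 0.164. It passed without the filter on low values (adjusted p = 0.00676) and without siCLAP-3 (-0.45, adjusted p = 0.0222), and it was -0.19 without siCLAP-1 (adjusted p = 0.451). Over all 15 settings the estimate for Neat1 stayed negative, and its adjusted p reached 0.552.

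Malat1, whose gene lies next to Neat1 on chromosome 19, stood at 0.11 ± 0.09 (SE; edgeR adjusted p = 0.572). Its lowest value was that of siCLAP-3, the siCLAP library in which Neat1 was highest, and without siCLAP-3 the estimate was 0.24 (adjusted p = 0.0559). The ratio of Neat1 to Malat1 was 0.0901, 0.107 and 0.172 in siCLAP and 0.168, 0.152 and 0.156 in siNC, with an exact 2-sided permutation p of 0.4 (0.5 adjusted over 5 ratios). The siCLAP libraries thus held both the lowest and the highest ratio. Frmd8, a neighbouring gene, stood at 0.02 ± 0.06.

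The 8 listed paraspeckle proteins, which bind Neat1 or assemble around it, were all tested. None passed and 0 had an unadjusted p under 0.05, with estimates from -0.10 to 0.06 and a median of -0.02. Hnrnpk was the most abundant at 259, 264 and 263 TPM in siCLAP and 248, 262 and 255.1 TPM in siNC (0.06 ± 0.04). Nono was at 129.8, 128 and 126 TPM in siCLAP and 126, 129 and 124 TPM in siNC (0.03 ± 0.04). The groups overlapped for both of these proteins, whereas for Neat1 they did not.

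Miat, on chromosome 5 from 112213228 to 112228948 on the minus strand, had a log2 fold change of -0.19 ± 0.07 (SE). Its unadjusted p was 0.0174 and its edgeR adjusted p 0.196. The lowest library was siCLAP-2, and siCLAP-3 came within 2 TPM of the siNC range. Without siCLAP-3 the estimate was -0.27 and passed (adjusted p = 0.0455), and without siNC-3 and siCLAP-2 it was -0.10 (adjusted p = 0.750). The part of neuronal content, whose marker sums are given above, was not tested. The antisense transcript Gm26953 cannot be told apart from Miat over the bases they share. How much of these bases was in the counted model is not known.

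**Figure D5:**
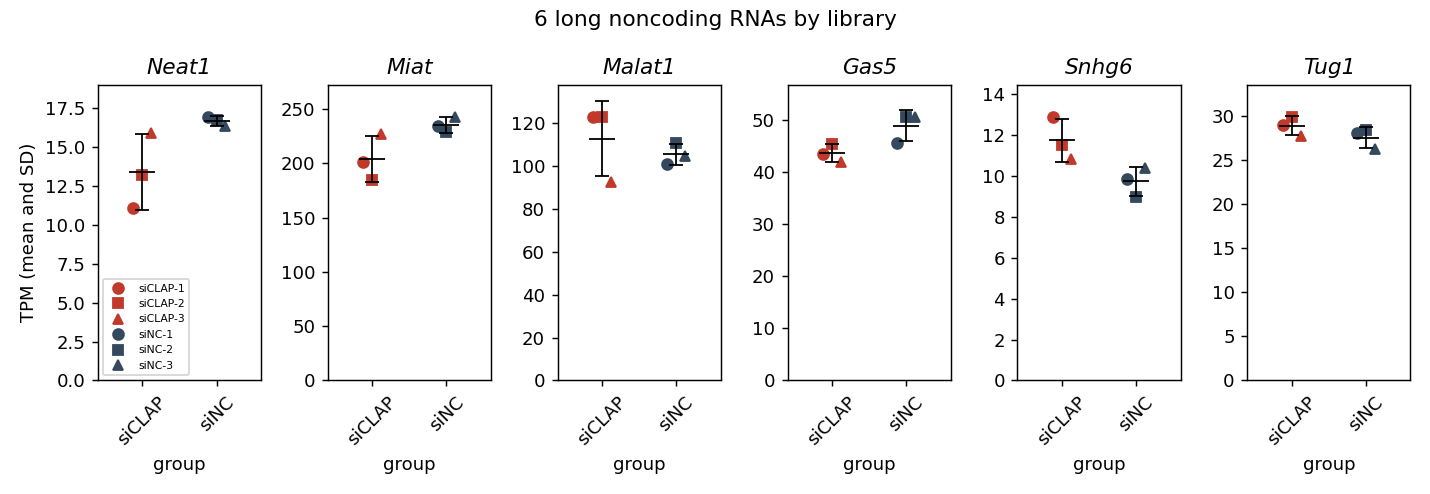
TPM per library (points) with mean and SD (bars) for Neat1, Miat, Malat1, Gas5, Snhg6 and Tug1, siCLAP in red left of siNC in dark blue, each vertical axis from 0. Neat1, Miat and Gas5 lie lower and Snhg6 higher in all siCLAP libraries, and the groups overlap for Malat1 and Tug1.

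The snoRNA hosts were the largest class, with 16 names, 14 rows and 14 tested. Snhg14 and Rian, with 206 and 11 snoRNA genes in their RefSeq spans, were classed as imprinted and are not counted here. Snhg20 is counted here, although its RefSeq span holds 0 snoRNA genes. None of the 14 passed, 1 had an unadjusted p under 0.05, and estimates were positive for 9 and negative for 5, with a median of 0.08. Snhg6 was at 12.9, 11.5 and 10.8 TPM in siCLAP and 9.89, 9.002 and 10.4 TPM in siNC. Its groups did not overlap, although siCLAP-3 and siNC-3 were less than 1 TPM apart, and the log2 fold change was 0.30 ± 0.13 (SE; edgeR adjusted p = 0.278). Snhg4 was at 3.97, 3.50 and 3.84 TPM in siCLAP, against 4.35, 4.74 and 4.38 TPM in siNC (-0.24 ± 0.15, edgeR adjusted p = 0.448). It was lower in every siCLAP library, as were Gas5, at -0.15 ± 0.09 (edgeR adjusted p = 0.403), and Snhg17, at -0.17 ± 0.13.

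The other hosts overlapped between the groups. Snhg11 stood at 0.01 ± 0.06 (SE), with an interval of 2 SE from -0.11 to 0.13. Snhg1, Snhg3, Snhg5, Snhg8, Snhg12, Snhg18 and Snhg20 had positive estimates from 0.07 to 0.13, and Snhg7 and Epb41l4aos had negative ones of -0.08 and -0.09. Their SEs ran from 0.128 for Snhg1 to 0.279 for Epb41l4aos, so their intervals cover folds on both sides. Mean levels of these 9 lay between 1.84 TPM for Snhg8 and 11.6 TPM for Snhg20. The 3 hosts whose pyrimidine starts are printed above stood at -0.15 (Gas5), -0.08 (Snhg7) and 0.13 (Snhg8).

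Proteins that package snoRNAs and factors of nonsense-mediated decay, the pathway that degrades spliced host transcripts such as Gas5, were listed as partners. Of 9 tested snoRNP proteins 0 passed, 1 had an unadjusted p under 0.05 and 7 had positive estimates, with a median of 0.12. Nop56, a core protein of box C/D snoRNPs, was at 89.99, 85.7 and 81.4 TPM in siCLAP and 84.0, 78.6 and 76.9 TPM in siNC (0.12 ± 0.05). Nop10, a core protein of box H/ACA snoRNPs, was at 52.0, 51.0 and 51.5 TPM in siCLAP and 45.4, 48.4 and 42.3 TPM in siNC (0.19 ± 0.07, edgeR adjusted p = 0.206). Nhp2, from the same complex, stood at 0.14 ± 0.08. Of these 3, Nop10 alone was higher in every siCLAP library. Of 10 decay factors 0 passed and 0 had an unadjusted p under 0.05, with 7 negative estimates and a median of -0.05. The most abundant were Smg5 at -0.07 ± 0.04, Upf1, the helicase of the pathway, at -0.06 ± 0.04 and Smg9 at -0.04 ± 0.07.

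Small RNA genes inside the spans of the members have rows of their own in the tables, which hold reads from longer fragments and not from a small RNA library. RefSeq spans of the members held 25 microRNA genes and 256 snoRNA genes, counted on either strand, 206 of the latter in Snhg14. Of these, 237 had a row, 64 had a count in some library and 49 were tested. None passed, 3 had an unadjusted p under 0.05 (background 17.0%), and 20 estimates were positive and 29 negative, with a median of -0.16. Over all tested genes 9472 estimates were positive and 9669 negative, with a median of -0.002. Mir370 in Rian, the source of the miR-370-3p printed above, had counts of 26.5, 13 and 23 in siCLAP and 33.5, 57 and 26 in siNC, with a log2 fold change of -0.79 ± 0.23 (SE; edgeR adjusted p = 0.136). DQ267102, a snoRNA in Rian, stood at 0.72 ± 0.27 (adjusted p = 0.218) and Gm25129 in Snhg11 at -0.56 ± 0.22 (adjusted p = 0.227). Rian as a whole stood at 0.03 ± 0.05, and the differences between these rows and Rian were not tested.

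Counts of hosted rows can be set beside those of the host, although whether the same reads were counted in both rows is not known. DQ267101, a snoRNA gene in Rian, had 37.9%, 38.1% and 36.3% as many counts as Rian in siCLAP and 37.2%, 36.5% and 36.8% in siNC. Mir770, the source of miR-770-5p, had 1.06%, 1.07% and 1.002% as many counts as Meg3 in siCLAP and 1.04%, 1.10% and 1.10% in siNC (log2 fold change -0.04 ± 0.07). Mir675, inside H19, had 18.5, 8.5 and 8.5 counts in siCLAP and 21, 10.2 and 25 counts in siNC, from 7.51% to 21.4% as many as H19, and was highest in siNC-3 as H19 was. Mir453 and Mir496a in Mirg, which share the seed GGUUGCC, had 102 and 12 counts over all libraries. Mir16-1 and Mir15a in Dleu2, whose mature forms share the seed AGCAGCA, had 9 and 0.5 counts, too few to compare.

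Members named for a neighbour or a locus, and those of the X inactivation centre, showed no difference past the threshold. Tug1 stood at 0.08 ± 0.05 (SE; edgeR adjusted p = 0.447) and its neighbour Morc2a at 0.02 ± 0.06. Pvt1, the RNA downstream of Myc on chromosome 15, was at 7.22, 7.75 and 9.15 TPM in siCLAP and 8.02, 7.28 and 5.99 TPM in siNC, with overlapping groups and a log2 fold change of 0.18 ± 0.12. Myc stood at 0.10 ± 0.08. Dubr, a transcript of chromosome 16, stood at -0.05 ± 0.11. Ftx, a noncoding activator of the X inactivation centre, was between 6.69 and 8.45 TPM in siCLAP and between 6.74 and 9.09 TPM in siNC (-0.13 ± 0.13). Jpx, another activator of that centre, was below the level for testing at 1.03, 0.87 and 0.79 TPM in siCLAP and 0.80, 1.11 and 0.56 TPM in siNC. With filterByExpr its log2 fold change was 0.07 ± 0.25 (adjusted p = 0.911). Xist, the RNA that coats an inactive X, was at most 0.03 TPM in any library and Tsix was at 0, in libraries labelled male. The protein-coding gene Rlim of the centre stood at 0.08 ± 0.05.

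Among 14 listed neighbours of other members, 13 were tested, 0 passed and 2 had an unadjusted p under 0.05. These were Znfx1, beside Zfas1, at -0.21 ± 0.06 (edgeR adjusted p = 0.144), and Epb41l4a, beside Epb41l4aos, at 0.28 ± 0.11 (edgeR adjusted p = 0.222). The abundant Slc3a2 and Matr3 stood at 0.001 ± 0.06 and 0.06 ± 0.05.

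The remaining members were scarce. Dleu2, the host of miR-15a and miR-16-1, was at 0.48, 0.61 and 0.62 TPM in siCLAP and 0.45, 0.48 and 0.43 TPM in siNC, from 12.5 to 30.5 counts a library. Its groups did not overlap, but siCLAP-1 and siNC-2 differed by less than 0.01 TPM. With filterByExpr its log2 fold change was 0.33 ± 0.24 (SE; adjusted p = 0.529). Rmst, an RNA of neural progenitors, had 1, 0.5 and 2 counts in siCLAP and 5.33, 14.8 and 2 counts in siNC, or 0.02, 0.02 and 0.06 TPM against 0.14, 0.29 and 0.09 TPM. No library of siCLAP exceeded 3 counts, and without any filter on low values the adjusted p was 0.106. Pantr1, an RNA beside the transcription factor gene Pou3f3, had 0 counts in all 6 libraries. With no counts its counted length could not be derived, so the transcript model behind this 0 is not known. For that model, a count of 0 allows up to 3 counts a library, which is 0.140 CPM (counts scaled to depth) in the shallowest library and 0.0651 CPM in the deepest, for counting error only.

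The 3 members under older symbols were tested in the same fit but are not in the counts above. Oip5os1, known as Cyrano and listed as 1700020I14Rik, is known for a site that pairs extensively with miR-7 and leads to its decay. The counted length of 8300 bases equals that of a GENCODE M21 transcript of the gene on chromosome 2, and that transcript holds the site at bases 2937 to 2959. Below, the seed of the microRNA and the 8 bases opposite its first positions are in capitals. Of the 23 bases of the site, 13 are complementary to miR-7a-5p when aligned without a gap. The window was fixed at 23 bases, so pairing with a gap or beyond the window was not counted. The 8 bases in capitals also occur at bases 747 to 769 of this transcript, where 9 of 23 bases are complementary. The same 8 letters, GTCTTCCA, searched on the transcript strand alone, occur in 80 of 419 GENCODE transcripts of 8000 to 8600 bases (19.1%).
mmu-miR-7a-5p: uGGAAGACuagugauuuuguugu
Oip5os1 site: aacaaaatcaccaatGTCTTCCA

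The Cyrano row was at 81.6, 81.9 and 72.55 TPM in siCLAP, against 72.49, 65.0 and 67.9 TPM in siNC. The groups did not overlap, with siCLAP-3 and siNC-1 less than 0.1 TPM apart. The log2 fold change was 0.22 ± 0.06 (SE), with an unadjusted p of 0.0025 and an edgeR adjusted p of 0.0984. It passed with DESeq2 (adjusted p = 0.0174), without the filter on low values (0.0151) and without siCLAP-3 (0.0348). It did not pass in the other settings, where the edgeR adjusted p reached 0.408 with 1 library left out and 0.552 without siNC-3 and siCLAP-2. The snoRNA host Zfas1, listed as 1500012F01Rik, was at 7.49, 9.52 and 6.80 TPM in siCLAP and 6.86, 7.30 and 8.88 TPM in siNC (0.07 ± 0.17). Snhg15, listed as Gm11974, was at 0.91, 1.36 and 1.27 TPM in siCLAP and 1.71, 1.36 and 1.45 TPM in siNC (-0.41 ± 0.31). Both overlapped between the groups.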

How the data were processed

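Total RNA of L4/5 DRG went into bulk libraries of the NEBNext Ultra kit, per the labels' protocols. The submitters' processing notes name FastQC 0.11.8, HISAT2 2.1.0, featureCounts 1.6.2 and mm10. How shared reads were treated, the strand setting and the annotation were not given in the sources used here. Each deposited file gives TPM values and expected counts per gene symbol, both computed by the authors. Of the deposited expected counts above 0, 39.4% were whole (tolerance 1e-06), so features that overlap may share reads.

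Expected counts were rounded and tested with edgeR 4.0.16 (R 4.3.3) by the quasi-likelihood test with TMM normalization, no covariate, a minimum mean TPM of 1 (19141 genes) and Benjamini-Hochberg adjustment over all of them, at a threshold of 0.05. SEs were derived from F statistics. A log2 fold change is siCLAP over siNC. The biological coefficient of variation was 6.78%. Alternatives used DESeq2 1.42.0, limma 3.58.1 on log2(TPM + 0.5) or log2(TPM + 0.1), other scalings and filters, a replicate block and libraries left out. Ratios used exact permutation tests. The scripts were tested on simulated counts for this comparison, where 23 of 18941 unchanged genes were called. Floors for a count of 0 cover counting error only, while SEs and intervals of 2 SE include the spread between libraries.

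Counted lengths were derived from each row's count and TPM relative to Malat1. Sequences, coordinates and hosted genes came from RefSeq GRCm38.p6 and GENCODE M21, and all 35 members had a RefSeq entry. Sequences on chromosome 18 were not used here. Libraries of 1 group differed by more than counting noise (mean chi-square per gene from 3.89 to 8.54), so each was counted as 1 sample, and this does not show whether libraries share a mouse.

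The members and all gene lists were chosen with earlier results of these data known. Members with a mean of at least 20 TPM, the 8 with the smallest p, and those under 1 TPM are given in every library, and of each partner list the 3 genes with the highest mean level, some of which are not reported here. Ube3a, Frmd8, Morc2a, Myc, Xist, Tsix, Znfx1, Epb41l4a, H19, Hoxd10 and the interferon genes were named outside that rule. All partner genes with an unadjusted p under 0.05 are named.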

Additional observations from a re-analysis of the deposited data

How the results depend on the processing

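The number of genes called was 56, and it was 519 with DESeq2, 0 with limma at either pseudocount, 835 of 30347 without a filter, 203 with a replicate block, 13 without siNC-3 and siCLAP-2, and from 0 to 340 with 1 library left out (340 when siCLAP-3 was left out, 157 for siNC-2, 4 for siNC-3 and 0 for siCLAP-1). Members called were 0, against 1 with DESeq2 and 1 with the replicate block (Snhg14 in both, at an adjusted p of 0.0471 with the block), 2 without a filter (Neat1 and Snhg14), and from 0 to 2 with 1 library left out (Neat1 and Miat without siCLAP-3, Snhg14 without siNC-2). Whether the replicate numbers pair libraries across the groups is not known. Same-numbered libraries correlated at 0.125, 0.0264 and -0.0649 in their deviations from the group means. Differently numbered pairs ran from -0.204 to 0.157, and so few libraries cannot decide the question. The median over members stayed positive, from 0.001 to 0.067 with 1 library left out. Of 30 gene results, 18 kept their sign in all 15 settings. The others changed sign in at least 1 setting, H19 from -0.90. With limma Meg3 was at -0.00283 at both pseudocounts and Snhg11 at -0.0032, and without siNC-3 and siCLAP-2 Snhg11 was at -0.0032, Snhg20 at -0.0200 and H19 at 0.27. With 1 library left out, ranges that crossed 0 were -0.26 to 0.12 (Snhg7), -0.16 to 0.24 (Snhg12), -0.062 to 0.17 (1500012F01Rik), -0.040 to 0.056 (Meg3), -0.0059 to 0.053 (Rian), -0.013 to 0.097 (Mirg), -0.24 to 0.18 (Epb41l4aos), -0.16 to 0.039 (Dubr), -0.051 to 0.078 (Snhg11), -0.019 to 0.17 (Snhg18) and -1.47 to 0.07 (H19), while Snhg20 ran from 0.025 to 0.39. The ratio of group means in TMM-normalised CPM differed from that in TPM by less than the spread between replicates for the 31 members with counts. The cause of these differences was not tested. Rmst, Dleu2 and most hosted rows had few counts.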
